A study of Canis lupus familiaris with 4 samples.

Results

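The miRNAs examined here are those of a cluster on the X chromosome that lies within CLCN5, the gene of an endosomal chloride/proton exchanger, and that includes miR-532, miR-500, miR-362, miR-660 and miR-502. They were measured by small RNA sequencing in extracellular vesicles (EVs) of 2 canine mammary gland adenocarcinoma cell lines. CHMp is the line from the primary tumor, whose EVs are called pTDEs, and CHMm is the line from the metastasis, whose EVs are called mTDEs. Both lines came from the same dog, so each stands for a single tumor site of a single animal, and both were kept under the same serum-free conditions before their EVs were collected. There were 2 libraries per cell line. Members were found by their names in the deposited table, and 5 of its 673 rows matched. The rule also covered miR-501, which had no row.

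Clustered miRNAs such as these are cut from a shared primary transcript by Drosha and Dicer, and each hairpin can give an RNA from either arm. The seed, bases 2 to 8 of the mature RNA, guides it to its target messages. Members of one transcript start from the same RNA, but processing, strand choice, decay and, for EVs, loading can differ between them. The question put to the data was thus how the levels of the members compare with each other and between pTDEs and mTDEs.

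In the RefSeq annotation of UU_Cfam_GSD_1.0, the order along the chromosome is MIR532, MIR188, MIR500, MIR362, MIR660 and MIR502. All 6 hairpins lie inside the span of CLCN5, and AKAP4 follows on the far side. No coordinates are given from that assembly, because the authors worked on CanFam3.1. The table does not say which arm a row stands for, and no sequence of the known rows was used here. The sequences that can be shown for this locus are those of hairpins that the study predicted with miRDeep2, and they are shown because they place a further miR-500-like hairpin inside the cluster. Within 10 kb of the hairpin of cfa_novel_9 on the X chromosome there were 4 predictions. Only that of cfa_novel_9 lies on the plus strand and has a row in the table, at chrX:42781869-42781929 of CanFam3.1. Its arms are given 5′ to 3′ with the seed in capitals.
cfa_novel_9, mature arm: uAAUCCUUgcuaccugggugagagu
cfa_novel_9, other arm: aAUGCACCuaggcaaggauuccg

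The other 3 predictions lie on the minus strand and have no row. The mature strands of these predictions, read as their reverse complements, run in the direction of cfa_novel_9. The capitals again mark bases 2 to 8, and each line gives the CanFam3.1 position of the hairpin.
Reverse complement of the prediction at chrX:42774680-42774734: cAUGCCUUgaguguaggaccgu
Reverse complement of the prediction at chrX:42780369-42780423: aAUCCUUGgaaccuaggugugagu
Reverse complement of the prediction at chrX:42783965-42784020: uACCCAUUgcauaucggaguugu
From their letters, these are the 5′ arms of miR-532, miR-362 and miR-660 as they are known in human, in the same order as the genes in RefSeq. By this order cfa_novel_9 lies between MIR362 and MIR660, where the RefSeq table lists no gene. The study merged forward and reverse reads of a sample into 1 file before its predictions. Whether both reads of a fragment count toward a row is not given in the sources used here, and the part of merging in the minus-strand predictions was not tested. Of the 165 predicted miRNAs with a sequence, 1, cfa_novel_9 itself, holds AUCCUU within bases 2 to 8, the letters that its seed shares with the miR-362-like sequence. No other pair of these 4 sequences shares 6 letters in a row within the seed.

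The deposited values, which were converted to CPM (the reads of a row per 1000000 reads of its library), rest on 6296238 and 5053696 recovered reads in pTDE replicates 1 and 2. In mTDE replicates 1 and 2 they rest on 3457516 and 2330459 reads. Levels are shares of the reads of a library and were not calibrated to molecules. The intervals given with single libraries are exact 95% Poisson intervals of the recovered reads and cover counting error only. The study calls its replicates biological, but whether they were separate cultures is not given in the sources used here, and p-values then measure only the spread between these libraries. Which library was run on which of the study's sequencing instruments is not given either, so an instrument cannot be told apart from a replicate or a cell line. Median-ratio scaling gave factors from 0.869 to 0.941 for 3 libraries and 1.36 for mTDE replicate 2. The differences between the cell lines are also given without that library.

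All 5 members were above 0 in all 4 libraries. Together they had 427.8 and 635 CPM in pTDE replicates 1 and 2 and 361.9 and 830 CPM in mTDE replicates 1 and 2. These sums are 0.0362% to 0.0830% of a library. The libraries of one cell line lay within the range of the other, with a mean of 531.4 ± 146.6 CPM (SD, n = 2) in pTDEs and 596 ± 331 CPM in mTDEs. The ratio of the means, pTDE over mTDE, was 0.892. It was 0.640 without mTDE replicate 1, 1.47 without mTDE replicate 2 and 1.07 without pTDE replicate 1, and it was 1.12 with median-ratio scaling, so its direction depends on single libraries and on the scaling. No p-value is given for the sum, since the members were chosen as a group.

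**Figure D1:**
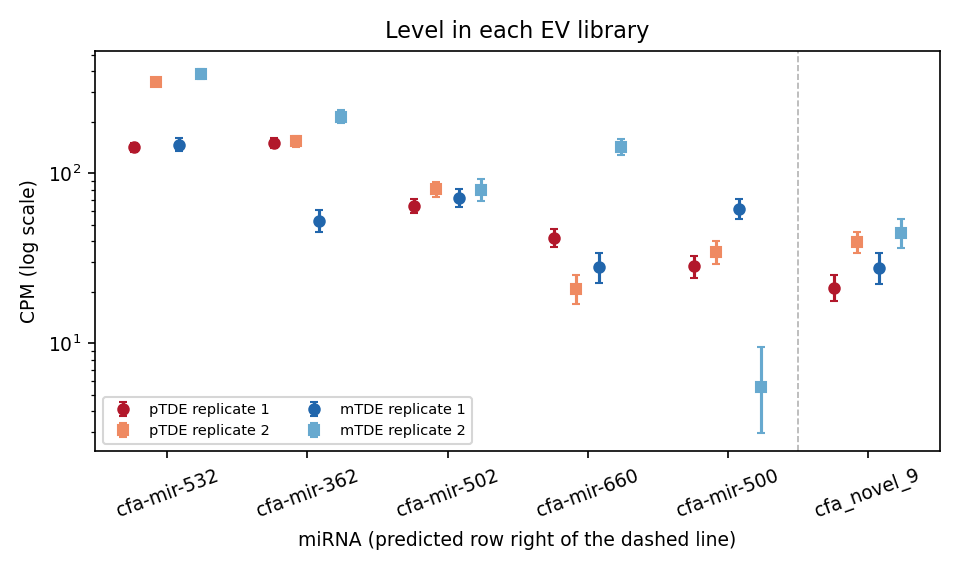
Level in CPM (log axis) of the 5 members and of the predicted cfa_novel_9 in each library, with circles for replicate 1, squares for replicate 2 and exact 95% Poisson intervals as bars. cfa-mir-502 lies between 64.5 and 80.5 CPM in all libraries, whereas cfa-mir-500 falls to 5.58 CPM in mTDE replicate 2.

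cfa-mir-532, the first hairpin of the cluster, had the highest mean level, 255 CPM over the 4 libraries. Its level was 142.4 and 344.7 CPM in pTDE replicates 1 and 2 and 147.5 and 385.3 CPM in mTDE replicates 1 and 2. The cell lines overlapped, and within each line replicate 2 was higher than replicate 1, by 2.42-fold in pTDEs and 2.61-fold in mTDEs.

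cfa-mir-362 came second by mean level, with 143.3 CPM. It was at 150.8 and 154.4 CPM in pTDE replicates 1 and 2, whose Poisson intervals overlapped. In mTDE replicate 1 it was at 52.4 CPM (interval 45.0 to 60.6) and in mTDE replicate 2 at 215.5 CPM (interval 197 to 235.1). Both pTDE libraries thus lay between the mTDE libraries, which differed 4.12-fold.

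cfa-mir-502, the last hairpin in the order, varied least among the members. Its level was 64.5 and 80.5 CPM in pTDE replicates 1 and 2 and 72.1 and 80.3 CPM in mTDE replicates 1 and 2. The highest library exceeded the lowest by 1.25-fold, against 2.71-fold for cfa-mir-532 and 11.1-fold for cfa-mir-500. For pTDEs the mean was 72.5 ± 11.3 CPM (SD, n = 2), and for mTDEs it was 76.2 ± 5.83 CPM (SD, n = 2).

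cfa-mir-660 had 41.6 and 21.0 CPM in pTDE replicates 1 and 2. It had 28.1 CPM (interval 22.8 to 34.2, 97 reads) in mTDE replicate 1 and 143.4 CPM (interval 128.4 to 159.5, 334 reads) in mTDE replicate 2. The last library was the highest, and the other 3 lay within 21.0 to 41.6 CPM. Among these, the interval of pTDE replicate 1 (36.7 to 47.0 CPM) overlapped neither that of pTDE replicate 2 (17.2 to 25.4 CPM) nor that of mTDE replicate 1.

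cfa-mir-500 had the widest range as a fold, 11.1-fold, though not in CPM, and the lowest mean level over the 4 libraries, 32.6 CPM. This place rests on mTDE replicate 2, since over the other 3 libraries it averaged 41.6 CPM and cfa-mir-660 averaged 30.2 CPM. In pTDEs, 179 reads gave 28.4 CPM for replicate 1 and 174 reads gave 34.4 CPM for replicate 2, with overlapping intervals. The mTDE libraries lay on either side, with 61.9 CPM (interval 53.9 to 70.8, 214 reads) in replicate 1 and 5.58 CPM (interval 2.97 to 9.54, 13 reads) in replicate 2. The intervals of the mTDE libraries did not overlap. At 28.4 CPM, the level of pTDE replicate 1 and the lowest of the other libraries, mTDE replicate 2 would hold 66.3 reads, 5.10-fold more than the 13 found.

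Since miR-188 belongs to the same cluster in RefSeq, its row was examined too. cfa-mir-188 was listed at 0 in all 4 libraries. The limit for a count of 0 was set at 3 reads, apart from the two-sided Poisson intervals, and equals 0.476 CPM in the deepest library and 1.29 CPM in the shallowest. The members on either side of it, cfa-mir-532 and cfa-mir-500, were above these limits in every library. The authors dropped reads under 22 bases. The part of this length filter in the 0 of cfa-mir-188 and in the levels of the members was not tested. The predicted cfa_novel_9 was at 21.3 and 39.6 CPM in pTDE replicates 1 and 2 and at 27.8 and 44.6 CPM in mTDE replicates 1 and 2. It was highest in mTDE replicate 2, where cfa-mir-500 was lowest, but its interval there (36.5 to 54.1 CPM) overlapped that of pTDE replicate 2 (34.3 to 45.5 CPM). The log2 ratio of mTDE replicate 1 to replicate 2 was -0.68 for cfa_novel_9. The median of all rows with at least 10 reads in both mTDE libraries was -0.62. Its mature arm has the seed of the human 5′ arm of miR-500a, and whether reads were divided between it and cfa-mir-500 was not tested.

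The order of the members was described by their log2 ratios within each library, which do not depend on the scaling of the library. By mean level the order was cfa-mir-532, cfa-mir-362, cfa-mir-502, cfa-mir-660 and cfa-mir-500, and the highest mean exceeded the lowest 7.82-fold. Without mTDE replicate 1 the mean levels kept this order and spanned 12.7-fold, and without mTDE replicate 2 cfa-mir-660 was the lowest. No 2 neighbors in this order kept it in all libraries. The log2 ratio of cfa-mir-362 to cfa-mir-532 was -0.85 ± 0.68 (SD, n = 4 libraries) and that of cfa-mir-362 to cfa-mir-502 was 0.78 ± 0.85. That of cfa-mir-660 to cfa-mir-502 was -0.77 ± 1.20, and that of cfa-mir-500 to cfa-mir-660 was -0.84 ± 2.66. Of the 10 pairs of members, 5 had the same order in all 4 libraries. In these pairs cfa-mir-532 was above cfa-mir-502, cfa-mir-660 and cfa-mir-500, cfa-mir-362 was above cfa-mir-660, and cfa-mir-502 was above cfa-mir-500. An exact sign-flip test over 4 libraries cannot go below a two-sided p of 0.125, so none was run on the pairs.

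The make-up of the summed level differed between the replicates of both cell lines. Of the sum, cfa-mir-532 held 33.3% and 54.3% in the pTDE libraries, replicate 1 first, and 40.8% and 46.4% in the mTDE libraries. cfa-mir-500 held 17.1% in mTDE replicate 1 and 0.672% in mTDE replicate 2, against 6.65% and 5.42% in the pTDE libraries. cfa-mir-362 held 35.3% and 24.3% in the pTDE libraries and 14.5% and 26.0% in the mTDE libraries. The share of cfa-mir-660 was 9.73% and 3.30% in pTDEs and 7.76% and 17.3% in mTDEs. That of cfa-mir-502, whose CPM varied least, was 15.1% and 12.7% in pTDEs and 19.9% and 9.68% in mTDEs. In percentage points, the largest shift between replicates in pTDEs was thus that of cfa-mir-532, and in mTDEs that of cfa-mir-500. As a fold, the share of cfa-mir-660 shifted more in pTDEs than that of cfa-mir-532. Within a library, the level of cfa-mir-660 divided by that of cfa-mir-500 was 1.46 for pTDE replicate 1, 0.609 for pTDE replicate 2, 0.453 for mTDE replicate 1 and 25.7 for mTDE replicate 2. The pairs with cfa-mir-500 had the 4 widest spreads over the libraries, with SDs of 1.56 to 2.66 on the log2 scale, and the highest SD of a pair without it was 1.20.

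**Figure D2:**
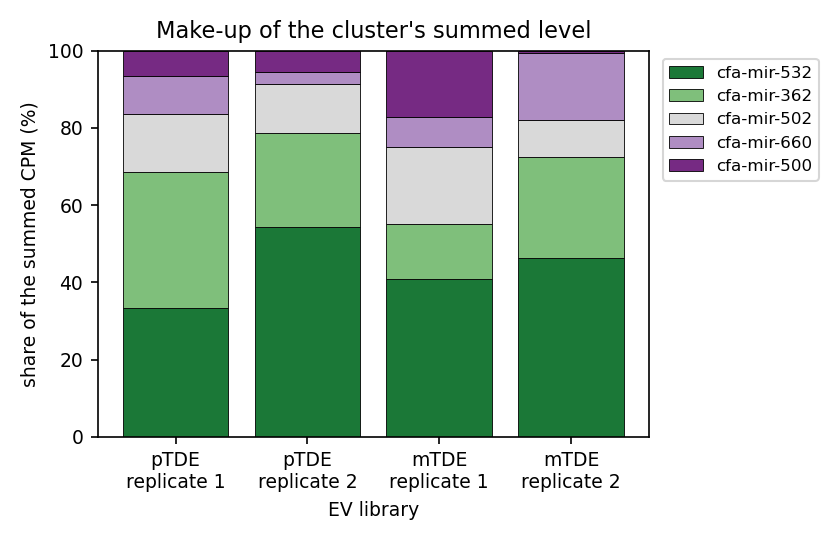
Share of each member in the summed CPM of the 5 members (percent, stacked to 100) in each of the 4 libraries. cfa-mir-500 takes 17.1% in mTDE replicate 1 and 0.672% in mTDE replicate 2, where cfa-mir-660 takes 17.3%.

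Other miRNA clusters were taken from RefSeq as runs of genes within 10 kb of each other, and 2 of them had at least 4 rows above 0 in all libraries, with identical copies counted once. The median SD of the log2 ratio of 2 members over the 4 libraries was 1.18 in the CLCN5 cluster. It was 0.87 over the 6 rows from cfa-mir-17 to cfa-mir-92a-1 and 0.92 over the 11 rows from cfa-mir-379 to cfa-mir-409. The highest SD of a pair went another way, with 2.66 in the CLCN5 cluster, 1.60 in the cfa-mir-17 cluster and 3.83 in the cfa-mir-379 cluster, and 4 of the 10 pairs of the CLCN5 cluster hold cfa-mir-500. The means of the members spanned 7.82-fold, against 2186-fold and 6.58-fold in these clusters. In the cfa-mir-17 cluster, cfa-mir-19b-1 and cfa-mir-92a-1 had the same replicate ratios as the rows cfa-mir-19b-2 and cfa-mir-92a-2. Whether their levels, which enter the 2186-fold span, come from 1 transcript was not tested. With 4 libraries shared by all clusters, these values are a description.

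The replicate differences of the members were then read against those of all rows with at least 10 reads in both libraries of a cell line. In mTDEs, where 240 rows qualified, the median row was lower in replicate 1 than in replicate 2 by a log2 ratio of -0.62. cfa-mir-500 went the other way at 3.47, and 3 of the 240 rows, itself included, had replicate 1 higher by as much. For cfa-mir-660 the log2 ratio was -2.35 and for cfa-mir-362 it was -2.04, with 32 and 41 rows, themselves included, at or below these values. cfa-mir-532 was at -1.38 and cfa-mir-502 at -0.16. In either direction, 10 of the 240 rows differed by as much as cfa-mir-500, 38 by as much as cfa-mir-660 and 48 by as much as cfa-mir-362, themselves included. In pTDEs, where 267 rows qualified and the median absolute log2 ratio was 0.64, the members lay between -1.28 for cfa-mir-532 and 0.99 for cfa-mir-660. The sign of the ratio was the same in both cell lines for cfa-mir-362, cfa-mir-502 and cfa-mir-532 and opposite for cfa-mir-500 and cfa-mir-660.

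**Figure D3:**
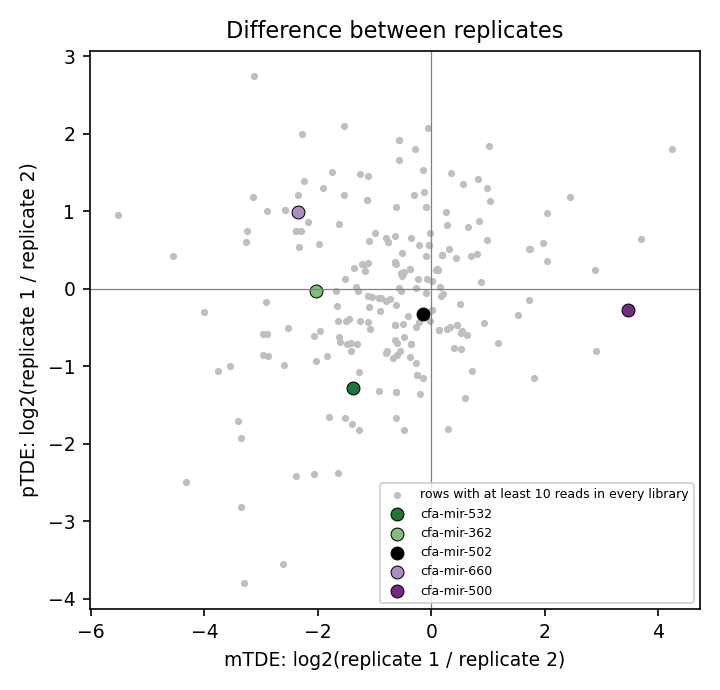
Log2 ratio of replicate 1 to replicate 2 in mTDEs (horizontal) and in pTDEs (vertical) for the 219 rows with at least 10 reads in every library (gray) and the 5 members (colored). cfa-mir-500 lies far to the right at 3.47, and cfa-mir-660 and cfa-mir-362 lie to the left at -2.35 and -2.04.

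The cell lines were compared with limma on log2(CPM + 1). The test took in 326 rows, those detected in each library of pTDEs, of mTDEs or of both, and the p-values were adjusted over all 326 by the Benjamini-Hochberg procedure. None of the 5 members was called at an adjusted p-value under 0.05, where 1.84% of all rows tested were, all of them lower in pTDEs. With median-ratio scaling 5 rows were called higher and 9 lower in pTDEs, again with no member among them. At an unadjusted p-value under 0.05, 0 of the 5 members passed, against 19.6% of all rows. The libraries of pTDEs and mTDEs overlapped in all 5 members, whereas they did not overlap in 53.4% of all rows tested. The median log2 difference, pTDE minus mTDE, was -0.08 over the members and -0.03 over all rows.

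On this scale cfa-mir-660 was at -1.08 with a standard error of 1.13 (limma adjusted p = 0.63). Its 95% interval ran from -4.11 to 1.94. cfa-mir-500 was at 0.67 (95% interval -3.01 to 4.34, limma adjusted p = 0.81) and cfa-mir-362 at 0.52 (-1.86 to 2.89, limma adjusted p = 0.77). For cfa-mir-500 the mean CPM ran the other way, with 31.4 ± 4.23 CPM in pTDE and 33.8 ± 39.8 CPM in mTDE libraries (SD, n = 2 each). The differences of cfa-mir-532 and cfa-mir-502 were -0.11 (-2.24 to 2.03) and -0.08 (-1.88 to 1.72), with limma adjusted p-values of 0.96 for both. The narrowest of these intervals, that of cfa-mir-502, still allowed a level in pTDEs from 0.273 to 3.30 times that in mTDEs. Differences of that size were thus not detectable with these libraries, and the test does not show that the cell lines are alike.

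The direction of all 5 differences changed when single libraries were left out. Without mTDE replicate 1, the difference of cfa-mir-500 was 2.30 (unadjusted p = 0.037, adjusted p = 0.20, limma), in a fit where 73 of the 326 rows had an unadjusted p-value under 0.05, and without mTDE replicate 2 its difference was -0.96. For cfa-mir-362 the same fits gave -0.49 and 1.53, for cfa-mir-660 -2.24 and 0.074, and for cfa-mir-532 -0.79 and 0.58. cfa-mir-502 was at -0.15 and 0.00017. Without pTDE replicate 1, cfa-mir-532 turned to 0.53 and cfa-mir-502 to 0.081, whereas no member turned without pTDE replicate 2. No member was called at an adjusted p-value under 0.05 in these fits, but the fits without an mTDE library called 0 of the 326 rows, and each of those without a pTDE library called 37 higher and 4 lower in pTDEs.

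**Figure D4:**
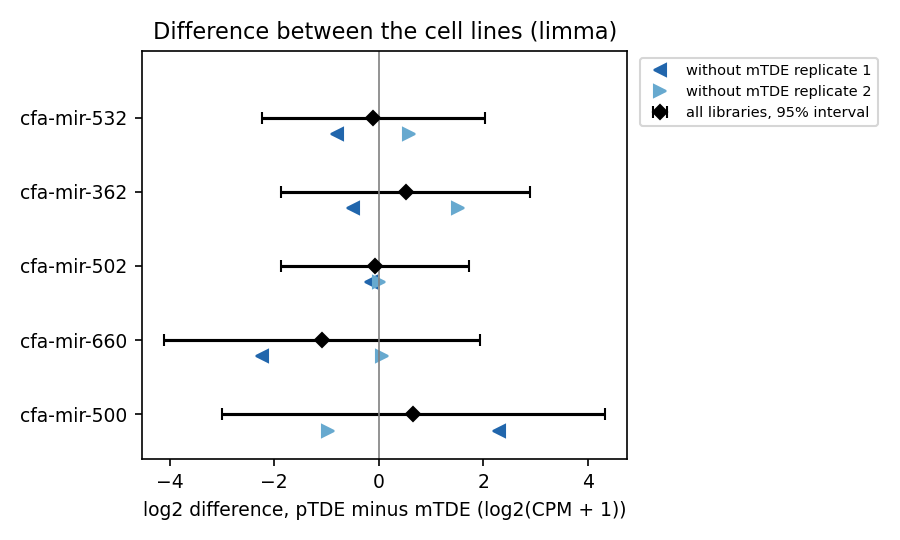
Log2 difference, pTDE minus mTDE, of each member on log2(CPM + 1) from limma (diamonds, with 95% intervals) and the same with 1 mTDE library left out (triangles). All 5 intervals cross 0, and for cfa-mir-500 the triangles lie at 2.30 and -0.96, on either side of 0.

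Other known miRNAs of the X chromosome were counted for comparison. By RefSeq name, 62 further known rows lie there, cfa-mir-188 not counted, and 26 of these were tested. Of the 26, 0 were called by limma at an adjusted p-value under 0.05 and 7 had an unadjusted p-value under 0.05, against 1.84% and 19.6% of all rows tested. Their median log2 difference was 0.05.

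The rows most like the summed members over the 4 libraries, by the distance between profiles of log2(CPM + 1) centered on their means, were cfa-mir-148b (0.23), cfa-mir-222 (0.29), cfa-mir-20b (0.41), cfa-mir-93 (0.42) and cfa-mir-381 (0.44). cfa-mir-148b was at 423.2 and 608 CPM in pTDE replicates 1 and 2 and at 426.2 and 897.5 CPM in mTDE replicates 1 and 2. cfa-mir-20b was at 0 in mTDE replicate 1 and at most 1.71 CPM elsewhere, where log2(CPM + 1) leaves little room to vary. The next row was cfa_novel_9 (0.47). The sum is led by cfa-mir-532, whose own distance to it was 0.51, with 6 of the 321 other rows nearer. cfa-mir-502 had 25 and cfa-mir-362 had 36 other rows nearer to the sum. For cfa-mir-660 the number was 141, and for cfa-mir-500, at a distance of 3.24, it was 267.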

How the data were processed

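Small RNA of EVs was sequenced by the authors from 4 libraries, who removed adapters with cutadapt and dropped reads under 22 bases, merged forward and reverse reads, and used miRDeep2 with CanFam3.1 to predict miRNAs and to quantify these and the known ones. Tool versions are not given in the sources used here. The deposited per-library score consists of whole numbers that total about 1000000 per library and that the study calls CPM. Columns of the authors' own comparison (fold changes, average level, test statistic and p-values) are in the same table and were not used.

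The score has the form of log2(CPM + 1) times a constant of the library, from 426 to 495 here. CPM were recovered as 2 to the power (score/constant), minus 1, with the constant set so that a library totals 1000000 CPM. The worth of 1 read, 0.159 to 0.429 CPM, was the largest step that fitted the low values, and a tolerance of 0.1 step made whole numbers of 100% of the values of at most 20 steps. The step was chosen to fit these same values, so this share is no separate check of it. Whole reads are resolved up to 112 to 263 CPM, and reads of higher rows are approximate. These reads were used for the Poisson intervals, the minimum of 10 reads behind replicate differences and limma voom only.

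The fit used limma 3.58.1 in R 4.3.3 (eBayes with a mean-variance trend, prior degrees of freedom 2.4), and the rest scipy 1.17.1, pandas 2.3.3 and numpy 2.4.6 in Python 3.11.15. Conversion and fit were tested on simulated data. The alternatives were other pseudocounts (0.1 and 5 CPM), row filters, median-ratio size factors, no trend, limma voom, the score taken as CPM, known miRNAs only, a replicate block and leaving out each library. RefSeq names matched 496 of the 508 known rows, after arm endings were removed where needed, and its table gives no strand, so neighboring genes were grouped without it.

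The members and lists were chosen with earlier results of these data known. The miRNAs named are the rows matching the cluster's numbers, cfa-mir-188, predicted rows of the locus by sequence or seed, the X-linked rows, clusters of at least 4 rows and the 5 rows nearest in profile. The candidates within 10 kb of cfa_novel_9 were chosen after the sequences were seen. Known rows that share a seed with a member were not analysed here, because no sequences of known rows were used.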

Additional observations from a re-analysis of the deposited data

How the results depend on the processing

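None of the 5 members was called at an adjusted p-value under 0.05 with limma in any of the 10 other fits with all libraries (adjusted p from 0.36 to 0.97) or of the 4 fits with a library left out (0.20 or above), where the lone library was assumed to vary like the other cell line. Of these 10 fits, 5 leave the differences as they are and alter only their errors or the rows tested. In the other 5, 21 of 25 differences kept their sign. cfa-mir-532 turned to 0.14 with median-ratio size factors and 0.10 with the score taken as CPM, and cfa-mir-502 to 0.16 and 0.10. Median-ratio scaling moved the median log2 difference of all rows from -0.03 to 0.22, so that both members then lay below it. With a library left out, 7 of 20 differences turned, over ranges of -0.96 to 2.30 for cfa-mir-500, -0.49 to 1.53 for cfa-mir-362, -2.24 to 0.074 for cfa-mir-660, -0.79 to 0.58 for cfa-mir-532 and -0.24 to 0.081 for cfa-mir-502. The ratio of the summed members was 1.12 with median-ratio factors, 1.08 with the score taken as CPM, unchanged with cfa-mir-188 added, and 0.640 to 1.47 with a library left out. The range between the highest and lowest member was 2.97 on the log2 scale and 0.72 with the score taken as CPM, which is a log scale itself, and was 2.81 to 3.67 with a library left out, where cfa-mir-660 took the lowest place from cfa-mir-500 without mTDE replicate 2.

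The calls over all rows were 0 higher and 6 lower in pTDEs as reported, 28 and 11 with a pseudocount of 0.1 CPM, 39 and 11 with the score taken as CPM, 5 and 9 with median-ratio factors, 5 and 11 with limma voom, 4 and 9 without a trend or with known miRNAs only, and 0 and 9 when rows averaging under 10 CPM were dropped. Without either pTDE library they were 37 and 4, and without either mTDE library 0 and 0, where 73 and 77 rows had an unadjusted p-value under 0.05. The cause was not tested.

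The replicate numbers are not said to mark a shared culture or day, and the deviations of same-numbered libraries correlated at 0.15 over 326 rows. With the replicate number as a block, cfa-mir-660 was at -1.08 (limma adjusted p = 0.61), 0 members were called, and the calls over all rows went from 0 higher and 6 lower in pTDEs to 0 and 7.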
